A study of Mus musculus with 12 samples.

Results

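The transcription factors of β-cell identity that were followed were Mafa, Pdx1, Nkx6-1, Nkx2-2, Neurod1, Pax6, Isl1, Foxa2, Rfx6 and Insm1. They were chosen by name, as the rows of the gene table whose Ensembl identifiers carry these 10 symbols, and they are 10 of 52962 genes in the table and 10 of the 15598 genes with enough reads to be tested. RNA was measured by sequencing in cells sorted from islets of NOD mice, which develop autoimmune diabetes. The 12 samples formed 4 groups of 3, namely β-cells of NOD mice at 4 weeks, β-cells of NOD mice at 8 weeks, non-β-cells of NOD mice at 4 weeks and non-β-cells of NOD mice at 8 weeks. Per the study's methods, all mice were female, islets were cultured overnight and dispersed, cells were sorted by their own fluorescence with CD45-positive leukocytes gated out, and each sample pooled several mice. No sample came from a strain without autoimmunity, so age, disease stage and postnatal maturation cannot be told apart. The non-β fraction is a mixture of all other islet cells, so its values are averages over cell types.

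Islet endocrine cells are kept in their state by a small network of DNA-binding proteins that sustain their own and one another's transcription. Some of these proteins are counted as enriched in β-cells of the adult mouse islet, namely MafA, Pdx1 and Nkx6-1. MafA turns on insulin transcription in mature β-cells, Pdx1 also binds the insulin promoter, and Nkx6-1 holds down the programs of the other islet cells. Others act in all hormone-producing islet cells: Nkx2-2, Pax6, Isl1, NeuroD1, Foxa2, Rfx6 and Insm1. β-cells that lose several of these factors lose insulin production and can take on features of other islet cells.

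The promoters of 5 members whose change with age differed between the fractions (values given further on) are shown so that their composition can be compared. Each line is 250 bases before a RefSeq start site (GRCm38.p6), 5′ to 3′ on the gene's own strand, with Pax6 having 2 starts. The gene intervals given further on come from another annotation, GENCODE. The Nkx6-1 and second Pax6 windows lie inside those intervals, and the Pdx1 and Neurod1 windows lie partly inside. Capitals mark matches on either strand to short sequences from sites bound by members or their families. These are CAGATG (the E-box bound by NeuroD1), TAATTA (homeodomain), TGTTTAC (FOXA), GTTGCC (partial RFX site) and TGCTGA (partial MAF site). The RFX and MAF sequences are only a part of the full site.
Pdx1, chr5:147269847-147270096, plus strand: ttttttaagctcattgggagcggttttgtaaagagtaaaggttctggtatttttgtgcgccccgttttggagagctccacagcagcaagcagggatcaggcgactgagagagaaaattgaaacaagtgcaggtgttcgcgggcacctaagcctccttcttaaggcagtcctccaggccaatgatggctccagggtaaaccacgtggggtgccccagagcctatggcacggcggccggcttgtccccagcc
Nkx6-1, chr5:101664712-101664961, minus strand: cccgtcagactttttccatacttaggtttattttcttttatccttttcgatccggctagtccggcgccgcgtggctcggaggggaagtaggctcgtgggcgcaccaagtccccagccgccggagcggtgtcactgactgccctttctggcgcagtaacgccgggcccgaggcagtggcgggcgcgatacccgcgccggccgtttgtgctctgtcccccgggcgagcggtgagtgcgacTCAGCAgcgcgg
Neurod1, chr2:79456637-79456886, minus strand: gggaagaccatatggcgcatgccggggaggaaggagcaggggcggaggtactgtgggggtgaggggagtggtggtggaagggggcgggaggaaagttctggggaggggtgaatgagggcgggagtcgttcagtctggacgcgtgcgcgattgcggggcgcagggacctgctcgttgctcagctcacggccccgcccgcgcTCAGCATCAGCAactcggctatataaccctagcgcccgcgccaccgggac
Pax6 start 1, chr2:105668646-105668895, plus strand: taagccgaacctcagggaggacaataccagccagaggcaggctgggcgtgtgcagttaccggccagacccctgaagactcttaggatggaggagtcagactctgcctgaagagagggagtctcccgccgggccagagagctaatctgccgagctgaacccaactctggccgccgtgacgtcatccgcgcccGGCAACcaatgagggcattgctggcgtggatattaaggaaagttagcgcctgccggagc
Pax6 start 2, chr2:105682213-105682462, plus strand: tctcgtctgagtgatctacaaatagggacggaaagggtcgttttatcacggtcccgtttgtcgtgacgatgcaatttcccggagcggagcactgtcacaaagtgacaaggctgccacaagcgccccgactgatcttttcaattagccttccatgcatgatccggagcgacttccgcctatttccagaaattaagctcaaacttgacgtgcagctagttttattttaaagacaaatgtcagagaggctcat
Isl1, chr13:116309689-116309938, minus strand: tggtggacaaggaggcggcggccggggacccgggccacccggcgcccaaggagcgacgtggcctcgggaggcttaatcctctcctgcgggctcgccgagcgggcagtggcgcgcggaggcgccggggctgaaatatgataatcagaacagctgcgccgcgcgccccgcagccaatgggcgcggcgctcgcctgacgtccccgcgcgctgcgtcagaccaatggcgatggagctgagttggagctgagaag

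Nkx6-1 held 1 match to the partial MAF site and Neurod1 held 2 side by side in the same orientation. The first Pax6 window held 1 match to the partial RFX site. No letters of the 5 motifs were found in the Pdx1, Isl1 and second Pax6 windows. Among all 32851 RefSeq promoter windows of the same length, 16.1% held a match to the partial MAF site and 10.4% to the partial RFX site. The share was 14.4% for the E-box, 4.84% for the homeodomain sequence and 3.17% for the FOXA sequence. Such matches are thus common and are given as a description. The windows were richer in G and C than the median of all windows (52.4%), at 71.2% in Isl1, 67.6% in Neurod1, 65.2% in Nkx6-1, 60.8% in the first Pax6 window and 54.8% in Pdx1, except for 47.6% in the second Pax6 window. RefSeq promoters were matched for 8 of the 10 members.

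Total estimated counts ranged from 13755106 to 27040652 a sample, and the lowest count of any member in any sample was 145, for Mafa in non-β-cells. Levels are given as CPM, counts brought to a shared library size with TMM factors (trimmed mean of M-values), values after ± are SDs over 3 samples, and limma-voom gave the log2 differences with their standard errors (SE) and p-values adjusted over every tested gene, called at 0.05. The p-values measure only the spread between these pools. The sort was checked with marker genes. Summed over 10 α-cell markers, β samples held 5883 to 9652 CPM at 4 weeks and 1766 to 2822 CPM at 8 weeks, against 107200 to 136800 CPM in non-β samples of either age. The 7 β-cell markers summed to 46320 to 81370 CPM and 107200 to 112800 CPM in β samples, and to 2915 to 5924 CPM in non-β samples. Of 9 leukocyte markers 2 passed the low-count filter, and both were higher in β- than in non-β-cells at each age. Cd68, a lysosomal protein, had 48.8 ± 1.31 and 69.6 ± 5.12 CPM in β-cells and 9.15 ± 1.54 and 16.5 ± 3.40 CPM in non-β-cells at the respective ages. Cd79a, of B cells, had 3.08 ± 0.247 and 3.59 ± 0.299 CPM in β-cells and 0.429 ± 0.399 and 0.726 ± 0.329 CPM in non-β-cells. Cd79a passed the filter only through β samples, so its call between the fractions is no support for a difference. Of these 2, 1 rose with age in each fraction. Nkg7 was at 0 in all samples, and Ptprc, which encodes CD45, had at most 0.789 CPM in any sample. Both 4-week samples numbered 3 stood apart from the other 4-week samples, at chi-square values over genes, each divided by its degrees of freedom, of 86.7 and 94.8 against the other β replicates, which gave 26.3 between themselves, and of 41.1 and 49.3 against 12.4 in non-β-cells. Replicate 1 of the 8-week non-β-cells likewise gave 25.9 and 36.8 against 9.91 between the other 2. Results are given without these samples where that changes a call. In bulk samples such as these, fewer cells of a type and less RNA per cell cannot be told apart.

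The comparison of the fractions asks which of the factors mark β-cells and which are shared by the rest of the islet. Mafa, Pdx1, Nkx6-1 and Insm1 were higher in β-cells at both ages, whereas Nkx2-2, Isl1, Foxa2 and Rfx6 were lower in β-cells at both ages. Neurod1 and Pax6 were lower in β-cells at 4 weeks and did not differ past the threshold at 8 weeks (without both 4-week samples numbered 3, the 8-week differences were called, Neurod1 at 0.22 with an adjusted p of 0.0263 and Pax6 at -0.16 with 0.0324). At 4 weeks 4 of 10 members were higher and 6 lower, where 24.9% and 23.7% of all tested genes were. At 8 weeks 4 were higher and 4 lower, where 23.6% and 25.6% of all tested genes were. The fractions did not overlap for any of the 10 members at either age, as for 53.1% of all tested genes at 4 weeks and 64.9% at 8 weeks. The median difference of the members was -0.78 at 4 weeks and 0.03 at 8 weeks on the log2 scale, beside medians near 0 for all genes tested.

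**Figure D1:**
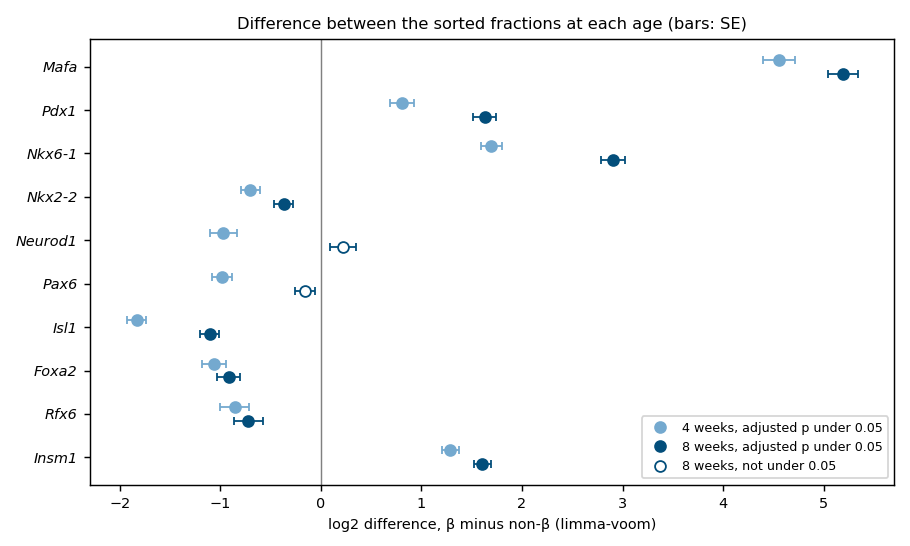
Difference between β- and non-β-cells for each factor on the log2 scale (x axis), at 4 weeks (light) and 8 weeks (dark), with the SE as bars and open points where the adjusted p was not under 0.05. Mafa lies furthest right, at 4.56 and 5.19, and Isl1 furthest left, at -1.83 and -1.11, while Neurod1 and Pax6 have open points at 8 weeks.

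Mafa (ENSMUSG00000047591, chromosome 15, 75745490 to 75748228, minus strand, GRCm38) had the widest gap. β-cells had 174, 187.6 and 201.5 CPM at 4 weeks and 407, 457 and 395 CPM at 8 weeks. In non-β-cells it was 9.41, 7.14 and 7.15 CPM at 4 weeks and 10.2, 12.0 and 12.6 CPM at 8 weeks. All β samples thus lay far above all non-β samples, and within each fraction the 8-week samples lay above the 4-week samples. The β to non-β difference was 4.56 (SE 0.157, adjusted p 3.6e-10) at 4 weeks and 5.19 (SE 0.147, adjusted p 7.2e-11) at 8 weeks on the log2 scale. Only 0.712% of tested genes had a larger difference toward β-cells at 4 weeks and 0.244% at 8 weeks. The Mafa level of the non-β fraction was 4.21% of that of β-cells at 4 weeks, and 2.76% at the later age. For the insulin genes the same shares at 4 and 8 weeks were 1.73% and 2.45% for Ins2 and 2.34% and 3.09% for Ins1.

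Pdx1 (ENSMUSG00000029644, chromosome 5, 147269959 to 147275848, plus strand) was less exclusive to β-cells. β-cells had 50.4, 53.4 and 56.8 CPM at 4 weeks and 90.5, 99.2 and 84.5 CPM at 8 weeks. Non-β-cells had 29.2, 32.1 and 30.5 CPM at 4 weeks and 26.7, 34.7 and 28.9 CPM at 8 weeks. The β groups were separate from each other and from the non-β samples, and the non-β groups overlapped. The non-β level was 57.2% of the β level at 4 weeks and 32.9% at 8 weeks, a log2 difference of 0.81 (SE 0.117, adjusted p 0.000105) and 1.63 (SE 0.117, adjusted p 1.8e-07). The antisense transcript Plut, which overlaps Pdx1, had at most 5.09 CPM in β-cells.

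Nkx6-1 (ENSMUSG00000035187, chromosome 5, 101658139 to 101664996, minus strand) was high in β-cells, with 253, 285 and 253 CPM at 4 weeks and 299, 321 and 277 CPM at 8 weeks. In non-β-cells it had 86.7, 83.7 and 73.9 CPM at 4 weeks and 36.9, 45.5 and 38.5 CPM at 8 weeks. The β groups overlapped, while every 8-week non-β sample lay below every 4-week one. The difference between the fractions was 1.69 (SE 0.107, adjusted p 6.5e-08) at 4 weeks and 2.91 (SE 0.116, adjusted p 8.7e-10) at 8 weeks. Its non-β level thus stood at 30.9% and then 13.5% of the β level.

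Insm1 (ENSMUSG00000068154, chromosome 2, 146221921 to 146225020, plus strand), a zinc finger factor of endocrine differentiation, was the shared factor that leaned toward β-cells. Its β samples had 601, 639 and 585 CPM at 4 weeks and 531, 544 and 504 CPM at 8 weeks. Non-β-cells had 260, 253 and 234 CPM at 4 weeks and 170, 180 and 168 CPM at 8 weeks. The 4 groups did not overlap, and the level was lower at 8 than at 4 weeks in both fractions. The fractions differed by 1.29 (SE 0.0865, adjusted p 1.1e-07) and 1.61 (SE 0.0868, adjusted p 1.3e-08).

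Isl1 (ENSMUSG00000042258, chromosome 13, 116298281 to 116309689, minus strand), a LIM homeodomain factor of all islet endocrine cells, stood lowest in β-cells relative to the other cells. The β samples had 42.4, 38.5 and 36.5 CPM at 4 weeks and 68.2, 67.1 and 73.9 CPM at 8 weeks. Non-β-cells had 139, 144 and 134 CPM at 4 weeks and 142, 157 and 151 CPM at 8 weeks. The β groups were separate from each other and below all non-β samples, whose ages overlapped. The β level was 28.2% of the non-β level at 4 weeks and 46.4% at 8 weeks. The difference was -1.83 (SE 0.0967, adjusted p 1.3e-08) at 4 weeks and -1.11 (SE 0.0923, adjusted p 6.8e-07) at 8 weeks.

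Pax6 (ENSMUSG00000027168, chromosome 2, 105668900 to 105697364, plus strand), a paired-box factor that drives hormone genes in several islet cell types, measured 187, 193 and 158 CPM at 4 weeks in β-cells and 339, 324 and 317 CPM at 8 weeks. Non-β-cells had 357, 374 and 328.5 CPM at 4 weeks and 366.5, 368 and 359 CPM at 8 weeks. The β groups were far apart, with the 4-week sample numbered 3 the lowest, and the 8-week β samples came just below the 8-week non-β samples. The fractions differed by -0.98 (SE 0.0975, adjusted p 4.1e-06) at 4 weeks and by -0.16 (SE 0.0974, adjusted p 0.193) at 8 weeks. The antisense gene Pax6os1 stood at 10.2 ± 3.07 CPM at 4 weeks and 8.80 ± 1.07 CPM at 8 weeks in β-cells, well under the Pax6 level.

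Neurod1 (ENSMUSG00000034701, chromosome 2, 79452521 to 79456751, minus strand), a basic helix-loop-helix factor that binds the E-box of the insulin promoter, measured 90.3, 109 and 79.7 CPM at 4 weeks in β-cells and 160, 154 and 157 CPM at 8 weeks. Non-β-cells had 192, 203 and 151 CPM at 4 weeks and 132, 134 and 138 CPM at 8 weeks. The order of the fractions turned with age, since the β samples lay below the non-β samples at 4 weeks and above them at 8 weeks. The difference was -0.97 (SE 0.13, adjusted p 5.9e-05) at 4 weeks and 0.22 (SE 0.13, adjusted p 0.182) at 8 weeks, the latter past the threshold in 4 of 19 alternative analyses. In both fractions the 4-week sample numbered 3 was the lowest of its group. Cerkl, a gene on the same strand that overlaps Neurod1, also went from 18.5 ± 3.69 to 38.6 ± 3.07 CPM in β-cells, with a log2 change of 1.09 (adjusted p 0.00383), and its part in the Neurod1 values was not tested.

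The remaining shared factors, all lower in β-cells, were Nkx2-2, Foxa2 and Rfx6. Nkx2-2 (ENSMUSG00000027434, chromosome 2, 147177546 to 147194243, minus strand), a homeodomain factor that represses α-cell genes in β-cells, measured 135, 138 and 139 CPM at 4 weeks in β-cells and 110.5, 114 and 102 CPM at 8 weeks. Non-β-cells had 232, 222.5 and 217 CPM at 4 weeks and 134, 132 and 155 CPM at 8 weeks. In both fractions all 8-week samples lay below all 4-week samples. The fractions differed by -0.70 (adjusted p 5.1e-05) and -0.37 (adjusted p 0.00543). Foxa2 (ENSMUSG00000037025, chromosome 2, 148042877 to 148046969, minus strand), a forkhead factor that opens chromatin for other factors, had 58.7 ± 2.85 and 51.9 ± 3.35 CPM in β-cells and 122.5 ± 2.99 and 99.2 ± 15.4 CPM in non-β-cells at 4 and 8 weeks. Its fractions differed by -1.06 (adjusted p 9.8e-06) and -0.92 (adjusted p 3.3e-05). Rfx6 (ENSMUSG00000019900, chromosome 10, 51677756 to 51730432, plus strand), a winged-helix factor needed for islet cell formation, had 56.7 ± 7.39 and 68.6 ± 2.29 CPM in β-cells and 103 ± 11.3 and 114 ± 21.4 CPM in non-β-cells. Its fractions differed by -0.86 (adjusted p 0.000376) and -0.72 (adjusted p 0.00108).

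**Figure D2:**
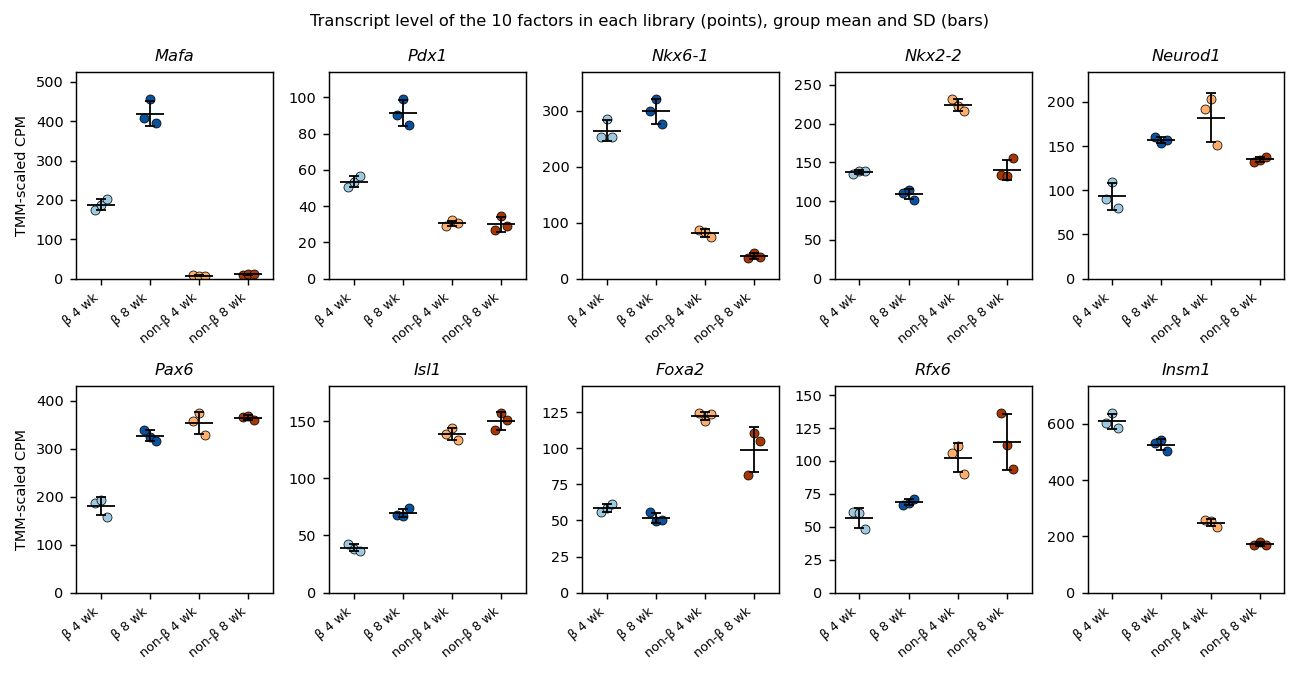
TMM-scaled CPM (y axis) of the 10 factors in each of the 12 samples (points), by fraction and age (x axis), with the group mean and SD as bars. Mafa lies near 0 in non-β-cells and Insm1 separates the 4 groups, while Neurod1 is lowest in β-cells at 4 weeks.

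To compare levels between genes, CPM was divided by each gene's summed exon length. In β-cells at 4 weeks Insm1 stood first at 196 ± 9.0 CPM per kb, followed by Nkx6-1 at 84.0 ± 5.94, Mafa at 68.5 ± 5.03, Nkx2-2 at 47.9 ± 0.721 and Neurod1 at 34.1 ± 5.50. Pdx1 at 24.8 ± 1.48 and Foxa2 at 24.8 ± 1.20 overlapped, as did Pax6 at 15.3 ± 1.60 and Rfx6 at 14.2 ± 1.84, and Isl1 was last at 9.89 ± 0.763. At 8 weeks Insm1 at 170 ± 6.59 and Mafa at 153 ± 11.95 overlapped at the top, followed by Nkx6-1 at 95.3 ± 7.03 and Neurod1 at 57.5 ± 1.19. In non-β-cells Mafa was last at both ages, at 2.89 ± 0.477 and 4.23 ± 0.462 CPM per kb, below Pdx1 at 14.2 ± 0.667 and Nkx6-1 at 12.8 ± 1.46, the factor next above it at 4 and 8 weeks. The first 3 places in β-cells and the last place in non-β-cells were held by these genes also with the longest annotated transcript as the length, but of the 10 members only 1 kept its place in all 4 groups, so places in the middle depend on the length used.

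The comparison of ages within β-cells asks how the factors change while immune infiltration of the islets advances, as the study describes the interval. In β-cells 5 members rose from 4 to 8 weeks, 1 fell and 4 did not pass the test. Of all tested genes 8.59% rose and 9.35% fell. Mafa rose 2.23-fold, and Pax6, Isl1, Pdx1 and Neurod1 rose between 1.70- and 1.83-fold. Nkx2-2, the repressor of α-cell genes, fell to 0.789 of its 4-week level. The ages did not overlap for 9 of 10 members (all but Nkx6-1), as for 40.3% of all tested genes. The median change of the 10 members was 0.52 on the log2 scale, beside 0.02 for all tested genes.

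On the log2 scale the rise was 1.16 for Mafa (SE 0.104, adjusted p 1.2e-05), 0.87 for Pax6 (SE 0.0975, adjusted p 7.0e-05), 0.84 for Isl1 (SE 0.0982, adjusted p 0.000101), 0.77 for Pdx1 (SE 0.107, adjusted p 0.000375) and 0.76 for Neurod1 (SE 0.13, adjusted p 0.00158). All 3 β samples at 8 weeks lay above all 3 at 4 weeks for each of these 5, and each rise was past the threshold in 19 of 19 alternative analyses. The change of Nkx2-2 was -0.34 (SE 0.0931, adjusted p 0.0233). This call was lost without the 8-week β replicate 1 (adjusted p 0.0623) or 3 (adjusted p 0.0904), with removal of trends on gene length and GC content (adjusted p 0.0984) and in 2 further analyses that blocked by replicate number. Of the 4 members without a call, Nkx6-1 changed by 0.18 (adjusted p 0.27), Rfx6 by 0.28 (adjusted p 0.212), Foxa2 by -0.18 (adjusted p 0.337) and Insm1 by -0.21 (adjusted p 0.117). Without both 4-week samples numbered 3 the value for Insm1 was -0.24 with an adjusted p of 0.0224, and the 6 calls above held. The summed α-cell marker level of the β samples was lower at 8 weeks, and 7 of its 9 tested genes fell. Acinar markers went the other way in the same samples, from a summed 77.2 to 153.5 CPM at 4 weeks to 361 to 773 CPM at 8 weeks, with 3 of 6 called higher, and 1 duct marker (Spp1, from 99.2 ± 30.3 to 943 ± 91.2 CPM), 1 mesenchymal and 1 leukocyte marker also rose. Gcg, the glucagon gene, stood at 6.36% of its non-β level in 4-week β-cells and at 1.62% in 8-week β-cells. Of the members higher in non-β-cells at 4 weeks, Pax6, Isl1 and Neurod1 rose with age in β-cells, Nkx2-2 fell, and Foxa2 and Rfx6 had no call. The part of any of these markers in the result was not tested.

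**Figure D3:**
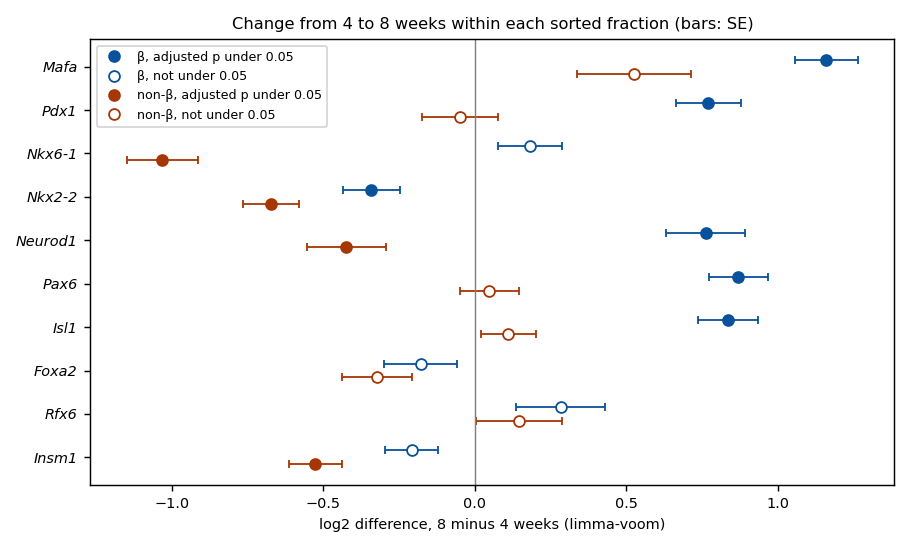
Change from 4 to 8 weeks of each factor on the log2 scale (x axis) in β-cells (blue) and non-β-cells (brown), with the SE as bars and filled points where the adjusted p was under 0.05. In β-cells 5 filled points lie to the right of 0, from 0.76 to 1.16, and in non-β-cells 4 lie to the left, from -1.03 to -0.42.

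In non-β-cells no member rose and 4 fell, where 11.6% of all tested genes rose and 4.8% fell. At an unadjusted p under 0.05, 1 member was higher and 5 were lower. edgeR and DESeq2 each called 1 member higher, Mafa, with a log2 change of 0.55 (adjusted p 0.0187) and 0.56 (adjusted p 0.00195), where limma-voom gave 0.53 (SE 0.189, adjusted p 0.0782). Nkx6-1 fell most, with a log2 change of -1.03 (SE 0.117, adjusted p 5.3e-05), which left 0.489 of its 4-week level. Nkx2-2 changed by -0.67 (SE 0.0931, adjusted p 0.000248), Insm1 by -0.53 (SE 0.0868, adjusted p 0.000919) and Neurod1 by -0.42 (SE 0.13, adjusted p 0.04). The first 3 falls were past the threshold in all 19 alternative analyses, and that of Neurod1 in 11 of them. The call for Neurod1 was lost when 4-week replicate 1 or 2 or any of the 3 replicates at 8 weeks was left out, at adjusted p-values from 0.0918 to 0.114.

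Pdx1 at -0.05 (adjusted p 0.847), Pax6 at 0.05 (adjusted p 0.808), Isl1 at 0.11 (adjusted p 0.48) and Rfx6 at 0.15 (adjusted p 0.56) did not pass the test in non-β-cells, nor did Foxa2 at -0.32 (adjusted p 0.0733). The fall of Foxa2 was past the threshold in 3 of 19 alternative analyses. The ages did not overlap for 6 of 10 members, beside 32.8% of all tested genes, and the median change of the members was -0.19. The non-β samples at 8 weeks also held more RNA of vessel and connective tissue cells. All 6 endothelial markers rose, from a summed 40.1 to 77.9 CPM at 4 weeks to 342.5 to 972 CPM at 8 weeks, and all 6 mesenchymal markers rose, from 103 to 293 CPM to 648 to 1036 CPM. Duct markers went from a summed 565 to 756 CPM to 1869 to 2099 CPM, with 4 of 5 called higher (1 of them, Cftr, passed the filter only through these 8-week samples), and acinar markers from 1.91 to 43.5 CPM to 135.5 to 603 CPM, with 2 of 6 called higher. The summed α-cell markers ranged from 107200 to 121700 CPM at 4 weeks and from 114300 to 136800 CPM at 8 weeks, with 3 of 9 tested genes lower, and the summed δ-cell markers from 5314 to 8024 CPM and 8207 to 11680 CPM. The summed β-cell markers in these non-β samples ranged from 2915 to 4013 CPM at 4 weeks and from 5036 to 5924 CPM at 8 weeks, with 3 of 7 called higher. The part of this mixture in the non-β values, among them the lower Nkx6-1, Nkx2-2, Insm1 and Neurod1 levels, was not tested.

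Whether the factors changed differently in the fractions was tested with the interaction, which subtracts the change in non-β-cells from that in β-cells. It was above 0 for all 10 members, beside 50.1% of all tested genes, and passed the test for 5 (Nkx6-1, Neurod1, Pax6, Pdx1 and Isl1), beside 1.8% of all genes called in that direction. No member was called in the other direction, which took 3.33% of all genes. At an unadjusted p under 0.05, 8 members were above 0 and 0 below, and DESeq2 called 7 above 0. The median was 0.68, and near 0 for all genes tested.

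The 5 differences came from different sides. For Nkx6-1 the difference was 1.21 (SE 0.158, adjusted p 0.000679), with a fall in non-β-cells and no call in β-cells. Neurod1, at 1.19 (SE 0.184, adjusted p 0.00237), rose in β-cells and fell in non-β-cells. Pax6, Pdx1 and Isl1 rose in β-cells without a call in non-β-cells, with differences of 0.82 (SE 0.138, adjusted p 0.00378), 0.82 (SE 0.165, adjusted p 0.0118) and 0.73 (SE 0.134, adjusted p 0.00683). These 5 were past the threshold in all 24 alternative analyses. Mafa rose in β-cells and was called in non-β-cells by other tools, and its difference of 0.64 (SE 0.216, adjusted p 0.122) did not pass the test. Insm1 at 0.32 (adjusted p 0.176) and Nkx2-2 at 0.33 (adjusted p 0.187), lower with age in both fractions, did not pass, nor did Foxa2 and Rfx6, at 0.14 each (adjusted p 0.708 and 0.781). A fit blocked by replicate number treats equal numbers at each age as pairs. In it Mafa (adjusted p 0.0473) and Insm1 (adjusted p 0.0498) also passed, and 7 members were called in all.

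**Figure D4:**
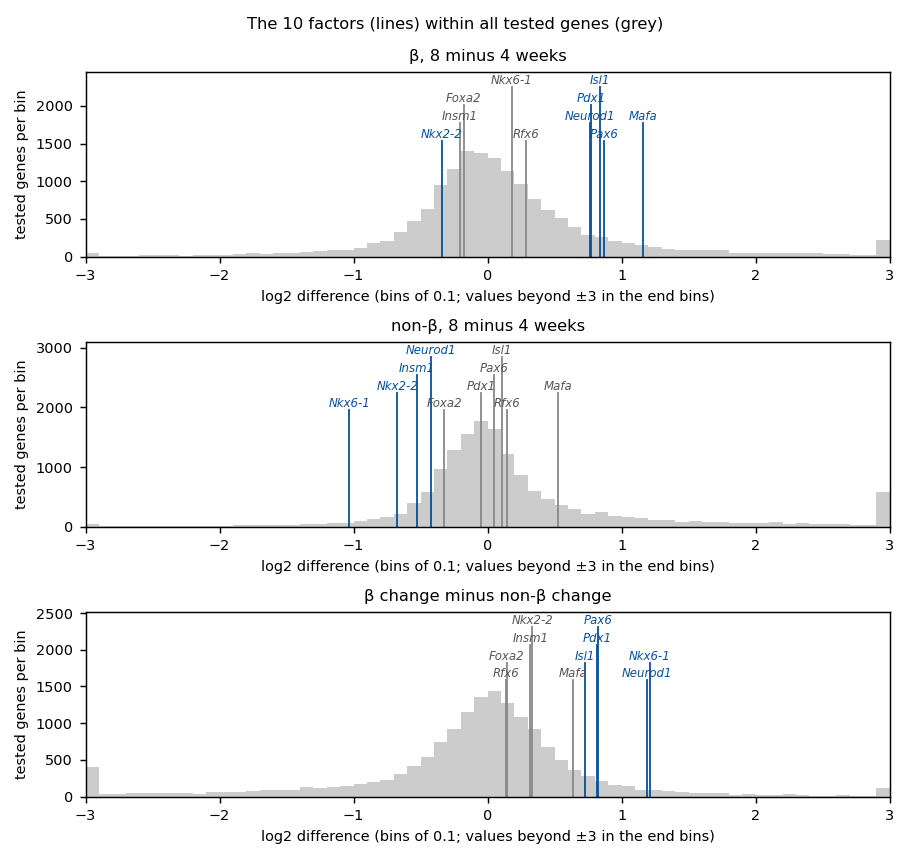
Distribution of log2 differences of the 15598 tested genes (grey bars, bins of 0.1 on the x axis, genes per bin on the y axis) for the change with age in β-cells, in non-β-cells and for their difference, with each factor as a line (blue where called). In the lowest panel all 10 lines lie to the right of 0, with Nkx6-1 and Neurod1 at 1.21 and 1.19.

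Set beside all tested genes, the rises in β-cells were not extreme in size. A larger rise than that of Mafa was seen for 8.46% of tested genes, and than those of Pax6, Isl1, Pdx1 and Neurod1 for 12.0%, 12.5%, 13.7% and 13.9%. In non-β-cells 97.3% of tested genes had a higher value than Nkx6-1. For the interaction 4.28% of tested genes lay above Nkx6-1.

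Among 34 other transcription factors of islet and pancreas, 31 passed the low-count filter. Of these, Nkx6-2 passed only through β-cells at 8 weeks and Foxa1 only through non-β-cells at 8 weeks, so they are left out of the counts for comparisons with those groups. In β-cells 3 of the other 30 rose and 6 fell from 4 to 8 weeks, beside 8.59% and 9.35% of all tested genes. Their median change was 0.17, beside 0.02 for all tested genes. Factors characteristic of α-cells were among those that fell, with log2 changes of -2.18 for Irx1 (adjusted p 0.00295) and -2.28 for Pou3f4 (adjusted p 0.0393). Their β levels were low at both ages, from 5.74 ± 0.70 to 1.29 ± 0.31 CPM for Irx1 and from 1.71 ± 0.436 to 0.443 ± 0.361 CPM for Pou3f4. Gata6, a factor of pancreas formation, fell by 1.07 (adjusted p 0.0042). Myt1l rose by 1.13 (adjusted p 0.0121). Nkx6-2, a close relative of Nkx6-1, had 0.291 ± 0.229 CPM in β-cells at the earlier age and 1.89 ± 0.49 CPM at the later one. In non-β-cells 2 of 30 rose and 2 fell, beside 11.6% and 4.8% of all tested genes. Those that rose were Sox9 and Neurog3, with log2 changes of 1.42 (adjusted p 0.000776) and 1.12 (adjusted p 0.00794). Irx1 and Irx2 changed by -0.73 (adjusted p 0.00098) and -0.45 (adjusted p 0.00468). Sox9 is a factor of duct cells and one of the duct markers given above. Between the fractions 4 of 31 were higher in β-cells and 22 lower at 4 weeks, and 4 and 20 of 29 at 8 weeks. These counts include Mnx1, which passed the filter only through β samples. They also include Neurog3, Sox9, Nr5a2 and, at 4 weeks, Foxa1, which passed only through non-β samples. The filter favours the calls of these genes between the fractions, so those calls are no support for a difference. The shares of all tested genes were 24.9% and 23.7% at 4 weeks and 23.6% and 25.6% at 8 weeks. For the interaction, counted here with Nkx6-2 and Foxa1 included, limma-voom called 0 of 31, with 6 at an unadjusted p under 0.05.

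Of 20 cofactors and partners of these proteins, 1 rose and 1 fell in β-cells, beside 8.59% and 9.35% of all tested genes. Chd4, a chromatin remodeller that binds Pdx1, changed by 0.38 (adjusted p 0.0318), and Dnmt3a, a DNA methyltransferase, by -0.75 (adjusted p 0.0367). In non-β-cells Tcf4, an E-protein, changed by 0.64 (adjusted p 0.0441), and no cofactor fell, where 11.6% of all tested genes rose and 4.8% fell. Between the fractions 3 were higher in β-cells and 7 lower at 4 weeks, and 5 and 8 at 8 weeks. The shares of all tested genes were 24.9% and 23.7% at 4 weeks and 23.6% and 25.6% at 8 weeks. The interaction was called for 0 of 20 by limma-voom, with 3 at an unadjusted p under 0.05.

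Of 19 tested genes that are known targets of the factors in β-cells, 9 rose and 2 fell in β-cells, beside 8.59% and 9.35% of all tested genes. Their median change was 0.34, beside 0.02 for all tested genes. Slc2a2, the glucose transporter of mouse β-cells, rose by 1.16 (adjusted p 3.9e-05), G6pc2, an islet glucose-6-phosphatase, by 1.12 (adjusted p 5.4e-06), and Pcsk1, which cleaves proinsulin, by 0.94 (adjusted p 2.2e-05). Ins1 rose by 1.51 (adjusted p 0.000681). The targets that fell were Ttr, a protein abundant in α-cells and an α-cell marker here, by 1.25 (adjusted p 0.000975), and Cdkn1a, a cell cycle inhibitor, by 0.52 (adjusted p 0.00174). In non-β-cells 5 rose and 1 fell, beside 11.6% and 4.8% of all tested genes. Among them were Ins1 at 1.89 (adjusted p 5.1e-05), Pcsk1 at 0.98 (adjusted p 0.000251), G6pc2 at 0.66 (adjusted p 0.000668) and Cdkn1a at -0.77 (adjusted p 6.8e-05). The 7 β-cell markers used to check the sort, Ins1 and G6pc2 among them, are all on this list. At 8 weeks non-β-cells had 735 CPM of Ins1, 50.9 of G6pc2 and 22.9 of Pcsk1. β-cells had 23780, 980 and 340.5 CPM. The part of β-cell RNA in the non-β samples in these rises was not tested. Between the fractions 12 of 19 were higher in β-cells at each age, and 4 lower at 4 weeks and 3 at 8 weeks. The shares of all tested genes were 24.9% higher and 23.7% lower at 4 weeks, and 23.6% and 25.6% at 8 weeks. No target was called for the interaction by limma-voom (0 of 19, with 4 at an unadjusted p under 0.05).

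**Figure D5:**
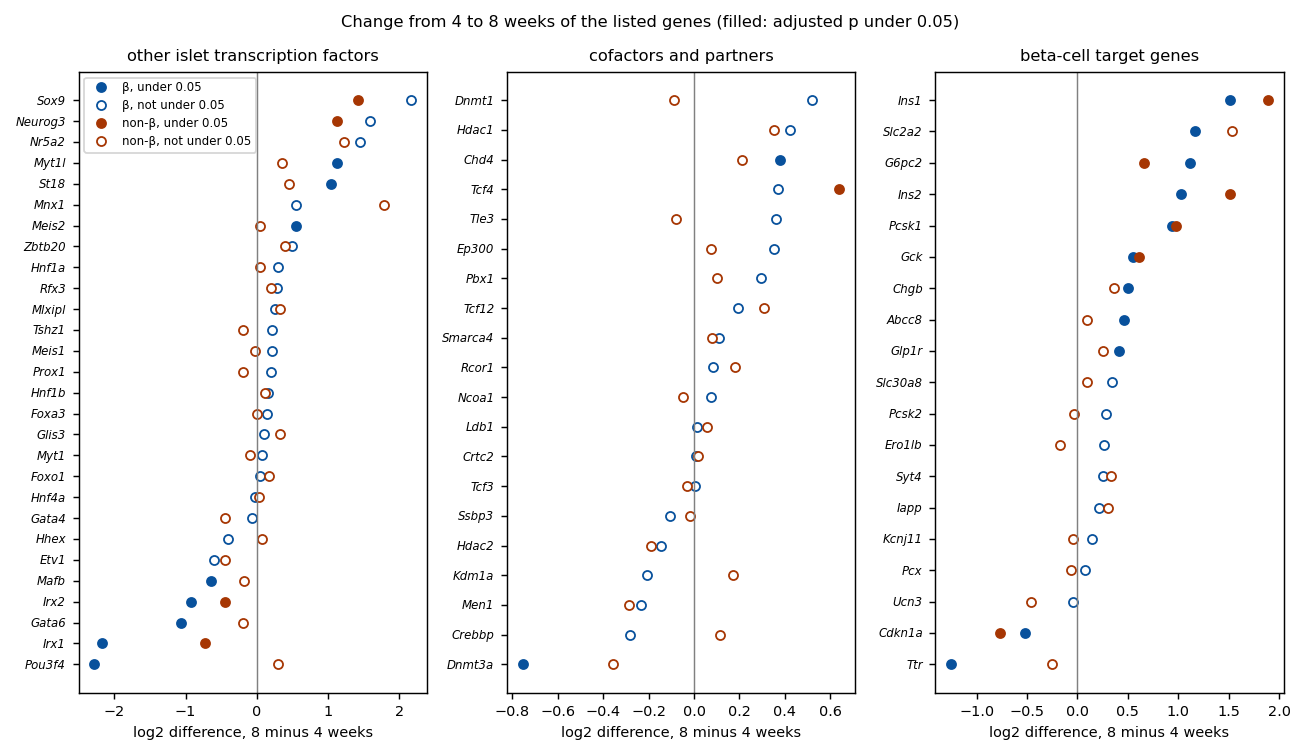
Change from 4 to 8 weeks on the log2 scale (x axis) of the genes of the 3 lists that were tested (y axis, 3 genes not shown), in β-cells (blue) and non-β-cells (brown), filled where the adjusted p was under 0.05. Among the other transcription factors Pou3f4 lies lowest in β-cells at -2.28, and among the targets Ins1 lies highest at 1.51.

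The genes whose log2 CPM followed each factor most closely over the 12 samples were named by Pearson's r, as a description with points that share libraries, fraction and age. G6pc2 was nearest to Mafa (0.998), Eno2 to Pdx1 (0.992), Gjd2 to Nkx6-1 (0.99), Zdhhc2 to Insm1 (0.998) and Midn to Isl1 (0.993). Rbm14 was nearest to Pax6 (0.988), Palm to Foxa2 (0.989), Slc26a2 to Rfx6 (0.982), Rnase4 to Nkx2-2 (0.974) and Zmynd11 to Neurod1 (0.952). Neurod1 thus had the least close neighbour of the 10. Among the members themselves the closest pairs were Nkx6-1 with Insm1 (0.987) and Mafa with Pdx1 (0.952).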

How the data were processed

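RNA sequencing was analysed in 12 samples (4 groups of 3), grouped by their labels. Per the study's methods, the authors ran fastp on single-end reads, quantified Ensembl transcripts (GRCm38) with kallisto and converted these to gene counts in tximport. The deposited values are estimated counts per gene, unscaled and unfiltered, of which 14.0% to 19.3% per sample were not whole. Tool versions are not given in the sources used here. The kit is strand-specific and the study describes reverse-stranded reads, yet whether the counting used strand is not given, so genes overlapping Pdx1, Nkx2-2, Neurod1 and Pax6 may share reads with them.

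Counts were rounded. Genes above 1 CPM in at least 3 samples were kept (15598). All 10 members passed. TMM scaling (edgeR 4.0.16) and limma-voom (limma 3.58.1, R 4.3.3) were applied to all 12 samples with a mean per group, following the study's methods, with two-sided tests and Benjamini-Hochberg adjustment over all tested genes. The code was tested on simulated data. Symbols, lengths and coordinates came from GENCODE M21 and matched 52002 of 52962 identifiers. Promoters came from RefSeq (GRCm38.p6). Likeness was computed over genes with a mean log2 CPM of at least 3.

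The members, gene lists, markers and tests were chosen with earlier results of these data known. All members are named, and of each list up to 6 called genes with the largest change per comparison, except 1 gene that is counted in its list and not reported here. Alternatives were DESeq2 1.42.0, its size factors alone, the quasi-likelihood test of edgeR, total counts, no filter, at least 10 counts in 6 samples, quality weights, only the groups compared, hormone and mitochondrial genes removed, length and GC trends removed (98.7% of tested genes had both), the replicate number as a block, and samples left out. Whether replicate numbers mark shared preparations is not stated. Over the 10280 genes with a mean log2 CPM of at least 3, deviations from the group means correlated, between β and non-β samples of equal number, at 0.292, 0.429 and 0.672 at 4 weeks. At 8 weeks the values were -0.0706 to 0.164. Samples of unlike age are separate mice, yet those of equal number gave 0.284, -0.073 and 0.351 in non-β-cells and -0.0307 to 0.133 in β-cells. Over all 15598 tested genes, β and non-β samples of equal number gave lower values at 4 weeks, 0.0797, 0.133 and 0.306. At 8 weeks they gave 0.008 to 0.0487. Equal numbers were taken to pair samples at 4 weeks only, and this pairing is not established. The model had no pair term, and blocked fits were alternatives. Replicates differed beyond counting noise.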

Additional observations from a re-analysis of the deposited data

Results flagged for a closer look

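For 5 factors the change from 4 to 8 weeks was unequal between the fractions by the direct test of that difference (limma-voom, adjusted p under 0.05). On the log2 scale, the β-cell change exceeded the non-β change by 1.21 for Nkx6-1 and 1.19 for Neurod1. This difference was 0.82 for Pdx1, 0.82 for Pax6 and 0.73 for Isl1. Nkx6-1 fell in non-β-cells without a call in β-cells. Neurod1 rose in β-cells and fell in non-β-cells, and the latter was called in 11 of 19 alternatives. Pdx1, Pax6 and Isl1 rose in β-cells and had no call in non-β-cells. At 8 weeks the summed mesenchymal, duct, acinar and β-cell markers were higher in both fractions. In β samples only 1 of the 5 duct markers, Spp1, was called higher, while Krt7 and Krt19 had lower means at 8 than at 4 weeks. The endothelial markers were higher in non-β samples and the α-cell markers lower in β samples. Krt7, on the duct list, had 857 ± 141 and 740 ± 38.3 CPM in β-cells against 260 ± 46.7 and 343 ± 49.8 CPM in non-β-cells at 4 and 8 weeks. The part of these markers in the differences was not tested.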

How the results depend on the processing

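Over all members and comparisons, leaving out 1 replicate left 350 values on the same side of the threshold and in the same direction, lost 7 calls and turned the sign of 3. The other alternatives left 603, added 29 calls, took away 6 and turned 2. The sign changes were all of values without a call: Pdx1 in non-β-cells, 0.070 with quality weights and, over replicates left out, -0.13 to 0.024 (above 0 without 8-week non-β replicate 1), Rfx6 in non-β-cells, -0.016 (without the same replicate) to 0.29, Pax6 in non-β-cells, -7.5e-05 with total counts, and Rfx6 in the interaction, -0.0085 (without 8-week non-β replicate 3) to 0.28. Their cause was not tested.

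The age change in β-cells was called for 2799 genes, for 5382 with quality weights and for 1695 to 2491 with 1 replicate left out, the 3 lowest without an 8-week β replicate (1734, 1697 and 1695). Members lower in β-cells numbered 1, but 2 with DESeq2, no filter, quality weights or without both 4-week samples numbered 3, and 0 with length and GC trends removed or, among replicates left out, 0 to 1. Members higher in non-β-cells numbered 0, but 1 with edgeR, DESeq2, or length and GC trends removed. The interaction was called for 800 genes, for 1562 with DESeq2, 2384 with quality weights, 1518 with length and GC trends removed, 1468 without both 4-week samples numbered 3, and 455 to 979 with 1 replicate left out. It fell by over 1.5 times without 8-week β replicates 1, 2 or 3 (504, 455 and 463), 4-week non-β replicate 1 (510) or 8-week non-β replicate 3 (496). Members called higher in it numbered 5, but 8 with quality weights. With the longest transcript as length 1 of 10 members kept its place. Fewer samples or genes enter the fits that leave some out, and otherwise the cause was not tested.

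Blocked by replicate number, the interaction was called for 2080 genes, the β-cell age change for 2569, the non-β age change for 2642 and the difference between fractions for 9158 at 4 weeks and 9127 at 8 weeks. At 4 weeks, where numbers were taken to pair samples, the block changed no member's call. Elsewhere equal numbers were not taken as pairs. With the block 0 members were lower in β-cells with age, 3 lower in non-β-cells and, in the interaction, which holds both ages, 7 higher (Mafa and Insm1 added). The block together with length and GC trends gave 0 members lower in β-cells, 1 higher in non-β-cells, 2656 genes in the interaction and 8 members higher in it.

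With 3 pools per group, 1 strain and no unaffected controls, small changes such as those of Foxa2 and Rfx6 are not resolved at this replication, and a lack of a call does not show that a factor stayed the same.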
